A study of Mus musculus with 6 samples.

Results

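Zbtb32, Hhex, Tle3, Klf2 and Klf3, which encode 4 DNA-binding transcription factors and 1 corepressor of memory B cells, were examined in sorted germinal centre B cells with and without a conditional Lsd1 deletion. They are 5 of the 15861 gene rows of the deposited count table, and all 5 passed the filter on low counts. The 5 genes were picked by name with their difference between the genotypes already known, so their differences are given as a description and support nothing. Polyadenylated RNA came from B220+ GL7+ FAS+ cells, the gate used for the sort. In the WT group were 3 libraries from C57BL/6 mice with Lsd1 f/f and no Cre. In the KO group were 3 libraries from mice of that strain with Lsd1 f/f and a single Cgamma-cre allele (Cgamma-cre+/-). Floxed alleles were thus shared by both groups, the series design calls the animals littermates, and each library came from 1 mouse. Neither age nor immunisation is stated in the labels. Cre alleles placed at an immunoglobulin gamma constant region act, as background, only in B cells that transcribe that locus after activation, so cells of the sort gate may keep the floxed alleles. No Cre mouse without floxed alleles was analysed here, and effects of Cre cannot be told apart from those of the deletion.

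Memory B cells are long-lived, resting cells that leave the germinal centre and respond quickly when the antigen returns. HHEX, a homeodomain protein, promotes this fate together with TLE3, a Groucho-family corepressor that binds no DNA itself and is brought to genes by partner proteins. KLF2 and KLF3 are Krüppel-like zinc finger proteins, which bind GC-rich and CACCC sequences. KLF2 keeps lymphocytes quiescent and drives homing and egress genes such as S1pr1, and KLF3 is mainly a repressor that recruits CtBP. ZBTB32 is a BTB-domain zinc finger repressor that restrains memory B cell recall responses and, with BLIMP-1, represses the MHC class II regulator gene Ciita. LSD1, encoded by Kdm1a, removes methyl groups from histone H3 and works in repressor complexes.

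Promoter sequences from RefSeq (GRCm38.p6, the assembly of mm10) were found for 5 of 5 genes, in 6 windows of 250 bases before an annotated start, of which Zbtb32 has 2. The 3 below are shown because they stand for the 3 patterns across libraries described later: a level alike in all KO libraries (Zbtb32), a difference of intermediate size (Hhex) and a high level in a single KO library (Klf2). Each reads 5′ to 3′ on the gene's strand and stops before the GENCODE gene start. Capitals mark matches to CCNCNCCC or its reverse complement GGGNGNGG, a loose form of the site that KLF and SP proteins bind; neighbouring matches can overlap.
Zbtb32 chr7:30598910-30599159 (-): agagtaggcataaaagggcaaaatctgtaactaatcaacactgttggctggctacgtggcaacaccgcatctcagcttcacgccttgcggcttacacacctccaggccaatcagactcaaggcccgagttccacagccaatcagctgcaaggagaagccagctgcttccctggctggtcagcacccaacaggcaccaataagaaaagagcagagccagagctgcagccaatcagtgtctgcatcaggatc
Hhex chr19:37434591-37434809 (+): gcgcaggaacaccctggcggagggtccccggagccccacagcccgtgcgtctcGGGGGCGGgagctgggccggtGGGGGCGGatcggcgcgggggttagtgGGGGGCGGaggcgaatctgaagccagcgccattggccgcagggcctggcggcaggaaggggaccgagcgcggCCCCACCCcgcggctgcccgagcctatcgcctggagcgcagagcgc
Klf2 chr8:72318812-72319032 (+): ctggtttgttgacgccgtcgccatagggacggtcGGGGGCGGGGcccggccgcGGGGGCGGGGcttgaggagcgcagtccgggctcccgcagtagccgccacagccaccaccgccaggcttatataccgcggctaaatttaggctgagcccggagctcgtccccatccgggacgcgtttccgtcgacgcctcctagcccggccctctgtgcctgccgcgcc
The start of Zbtb32 shown holds no capitals, while Hhex and Klf2 each have 4 matches in their windows. Among the windows not shown, the internal start of Zbtb32 has 1 match, Tle3 has 0 and Klf3 has 10. GC content parted the windows with 4 or more matches from those with 1 or 0. GC content was 53.6% for the Zbtb32 start shown, 51.2% for its internal start and 52.4% for Tle3, against 76.0% for Hhex, 71.2% for Klf2 and 78.4% for Klf3, where the median of all 32851 windows was 52.4%. CG dinucleotides numbered 5, 2 and 17 in the first 3 and 32, 29 and 23 in the others. The median of all windows was 6, so Tle3 was above it, unlike both Zbtb32 windows. The KLF and SP letters were found in 4 of the 6 windows, and in 45.9% of all windows. TTCNNNGAA, a form of the BCL6 and STAT site, was in 0 of the 6 and in 7.02% of all windows, and AAATCA, the core of the GFI1 site, in 0 of the 6 and in 12.4%. Both strands were searched, and these are descriptions of letters in short windows.

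Depth and the targeted gene bear on every value below. Library totals ran from 3390805 to 5524852 counts in WT and from 12325300 to 14327654 counts in KO, so genotype and depth cannot be told apart. Values are in CPM, read counts scaled to a common library size by TMM, unless another scale is named. Kdm1a was read at 134, 85.2 and 92.6 CPM in WT 1 to 3 and at 81.9, 33.0 and 21.8 CPM in the libraries labelled KO 1, KO 2 and KO 3. The library labelled KO 1 was close to the lowest WT library for Kdm1a, and as a share of library totals its 87.5 CPM lay within the WT range of 78.9 to 135. The log2 fold change of Kdm1a (KO minus WT, called its log2 difference below for other genes too) was -1.19 (SE 0.50), and -1.93 without the library labelled KO 1. Each direction given for the KO group includes that library unless it is said to be left out. Counts cover whole genes, so exons outside the floxed part of Kdm1a are included.

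Of the 5 genes, 3 had every KO library above every WT library (Zbtb32, Hhex and Klf3), as did 10.0% of the 10926 genes tested. Zbtb32 alone of the 5 passed the test over all genes, where 0.0732% of genes were called higher. The fitted log2 fold change was above 0 for all 5, with a median of 1.40, against 51.3% of all genes and a median of 0.01. Because this contrast was known when the genes were picked, nothing is read from these counts. Without the library labelled KO 1 the same 3 genes were separated, against 13.0% of all genes. The library labelled KO 1 was the highest KO library for 4 of the 5 genes, all but Zbtb32.

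**Figure D1:**
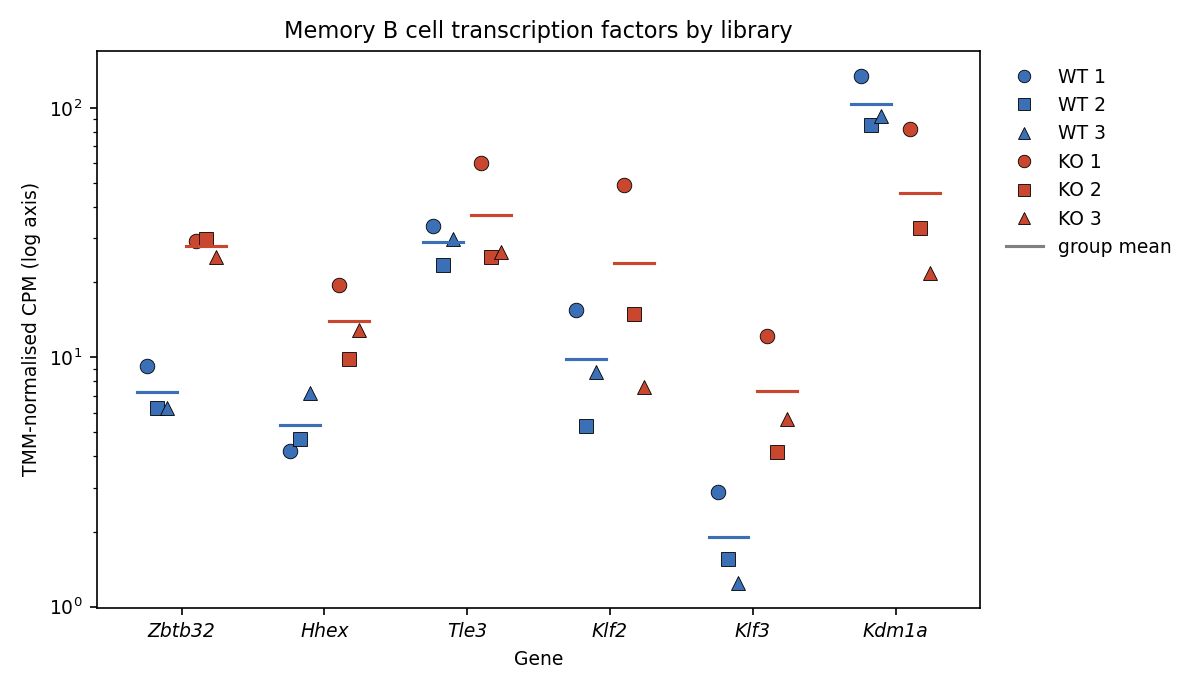
TMM-normalised CPM (log axis) of the 5 genes and of Kdm1a in each of the 6 libraries; symbols mark the replicate number, colours the genotype, and horizontal lines the group means. Zbtb32 lies between 25.2 and 29.7 CPM in all KO libraries, whereas Klf2 runs from 7.58 to 49.1 CPM among them.

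Zbtb32 (ENSMUSG00000006310, chromosome 7, 30589681 to 30598909, minus strand, mm10) was read at 9.19, 6.25 and 6.23 CPM in WT and at 29.2, 29.7 and 25.2 CPM in KO. These rest on 35, 32 and 20 counts in WT and on 384, 421 and 353 counts in KO. The groups were far apart relative to their spread: the lowest KO library was 2.75 times the highest WT library, and the KO libraries differed among themselves by 1.18 times at most. Mean levels were 7.23 ± 1.70 and 28.0 ± 2.44 CPM (SD, n = 3 each). The gene rose by a log2 fold change of 1.96 (SE 0.28, 95% interval 1.35 to 2.56) and ranked 5 among all genes by p-value (adjusted p = 0.0348, quasi-likelihood test of edgeR). The library labelled KO 1, with the highest Kdm1a of its group, lay between the other KO libraries for Zbtb32. The call was lost without WT 2 (edgeR adjusted p = 0.0949), without WT 3 (0.355) and without KO 2 (0.111), with limma-voom (0.125) and after thinning to equal depth (0.0634). Over all 16 alternatives the log2 fold change lay between 1.85 and 2.15, and it passed in 11.

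Hhex and Tle3, the homeodomain factor and the corepressor it works with, did not share 1 pattern. Hhex (ENSMUSG00000024986, chromosome 19, 37434810 to 37440731, plus strand) was read at 4.20, 4.69 and 7.17 CPM in WT, from 16, 24 and 23 counts. In KO it was read at 19.4, 9.81 and 12.9 CPM, from 255, 139 and 180 counts. Every KO library was above every WT library, but KO 2 was only 1.37 times WT 3, and the KO libraries spread by 1.97 times. The log2 fold change was 1.40 (SE 0.37, 95% interval 0.58 to 2.22), and the gene did not pass over all genes (edgeR adjusted p = 0.213). It was 1.08 (SE 0.40) without the library labelled KO 1, and Hhex passed in 0 of 16 alternatives.

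Tle3 (ENSMUSG00000032280, chromosome 9, 61372366 to 61418497, plus strand) was read at 33.6, 23.5 and 29.9 CPM in WT and at 60.0, 25.3 and 26.3 CPM in KO. Its groups overlapped, with KO 2 and KO 3 inside the WT range and the library labelled KO 1 above all others. The log2 fold change was 0.36 (SE 0.35, 95% interval -0.41 to 1.13, edgeR adjusted p = 0.713), and it turned to -0.18 (SE 0.28) without that library. Counts were 96 to 128 in WT and 358 to 790 in KO. The interval excludes a 4-fold difference in either direction but not a 2-fold higher level in KO.

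Klf2 varied most among the libraries of a group. This gene (ENSMUSG00000055148, chromosome 8, 72319033 to 72321656, plus strand) was read at 15.5, 5.28 and 8.73 CPM in WT, from 59, 27 and 28 counts, and at 49.1, 14.9 and 7.58 CPM in KO, from 647, 211 and 106 counts. WT libraries differed by 2.94 times and KO libraries by 6.48 times, and KO 2 and KO 3 lay within the WT range. The log2 fold change was 1.29 (SE 0.78, 95% interval -0.63 to 3.20, edgeR adjusted p = 0.548). Without the library labelled KO 1 it was 0.19 (SE 0.48), so the size of the fitted difference rests on that library.

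Klf3 (ENSMUSG00000029178, chromosome 5, 64803388 to 64832901, plus strand) had the lowest level of the 5 per kilobase of exon. It was read at 2.89, 1.56 and 1.25 CPM in WT, from only 11, 8 and 4 counts, and at 12.2, 4.16 and 5.65 CPM in KO, from 160, 59 and 79 counts. Every KO library was above every WT library, with KO 2 at 1.44 times WT 1. The log2 fold change was 1.94 (SE 0.54, 95% interval 0.75 to 3.12), close in size to that of Zbtb32 but with a wider interval, and it did not pass over all genes (edgeR adjusted p = 0.232). It was 1.36 (SE 0.55) without the library labelled KO 1. An exon of the unnamed gene Gm20033, which has no row in the deposited count table, overlaps Klf3 on the other strand. The strand setting of the counting is not known here, so whether reads of Gm20033 entered the Klf3 count cannot be told. For the other 4 genes no exon of another gene overlaps in the GENCODE annotation.

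**Figure D2:**
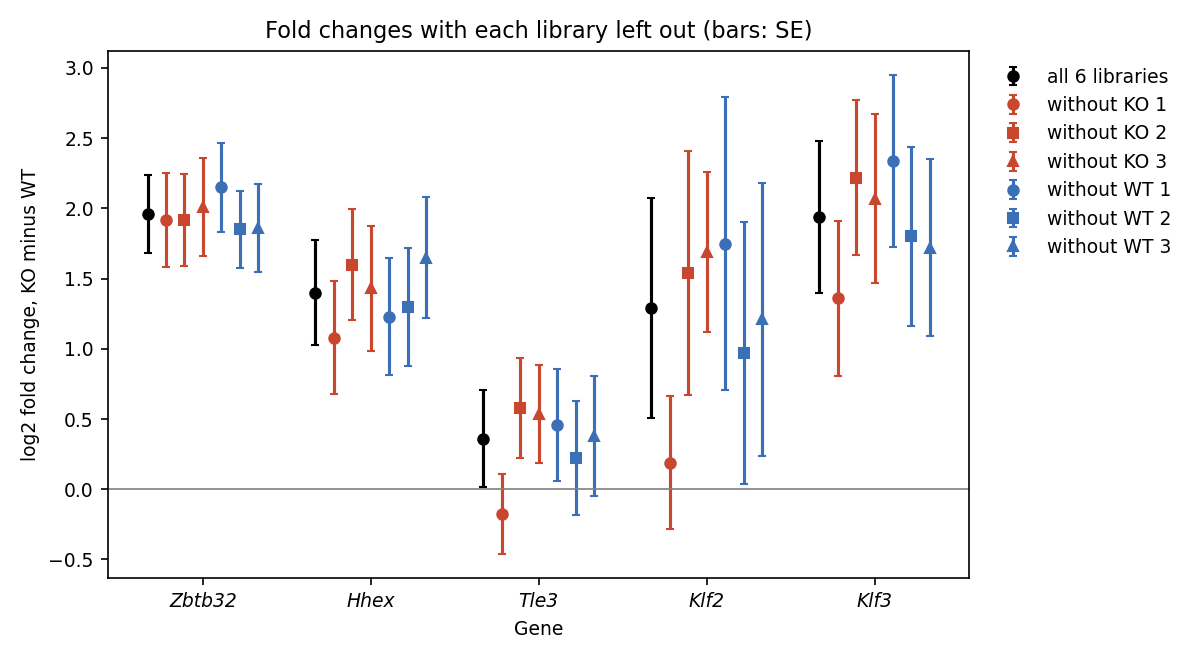
Fitted log2 fold change (KO minus WT, vertical axis) of the 5 genes with all 6 libraries (black) and with each library left out in turn (red for KO, blue for WT); bars are standard errors. Zbtb32 stays between 1.85 and 2.15, and without KO 1 Klf2 is at 0.19 and Tle3 at -0.18.

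Levels can be compared between genes once divided by the summed length of their annotated exons, as CPM per kilobase. In WT, Klf2 had 5.32 ± 2.81 CPM per kilobase, Zbtb32 3.07 ± 0.722, Tle3 2.49 ± 0.441, Hhex 1.06 ± 0.315 and Klf3 0.169 ± 0.0775 (SD, n = 3). The libraries of Klf2 and Zbtb32 overlapped, as did those of Zbtb32 and Tle3, while all WT values of Hhex were below those of Tle3 and above those of Klf3. In KO the order of the means was the same, at 12.9 for Klf2 (4.10 to 26.6 in single libraries), 11.9 ± 1.04 for Zbtb32, 3.19 ± 1.70 for Tle3, 2.77 ± 0.965 for Hhex and 0.651 ± 0.378 for Klf3. There Zbtb32 (10.7 to 12.6) was separate from Tle3 (2.17 to 5.15), whereas Tle3 and Hhex (1.94 to 3.83) overlapped. Without the library labelled KO 1 the KO order turned, with means of 11.7 for Zbtb32, 6.08 for Klf2, 2.24 for Hhex, 2.21 for Tle3 and 0.436 for Klf3. Exon lengths take in every annotated isoform, which lowers the values of genes with long, rarely used exons.

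Klf2 and Tle3 followed each other most closely across the 6 libraries. Pearson r of log2 CPM over the 6 libraries was 0.908 for this pair and 0.344 to 0.891 for the other 9 of the 10 pairs. For deviations from the group means, which leave out the difference between the genotypes, r was 0.918 for Klf2 and Tle3, 0.852 for Tle3 and Klf3, and 0.78 for Klf2 and Klf3. Zbtb32 and Hhex had r of 0.827 across the libraries and -0.381 for the deviations, the 1 pair below 0. These points share libraries, scaling and the difference in depth, n is 6, and the high value of KO 1 in the Klf2, Klf3 and Tle3 rows weighs on each r.

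Among 8385 other genes with a mean log2 CPM of at least 3, those most like Zbtb32 over the 6 libraries were Vim, which encodes vimentin (r = 0.995), and Tmem2 (r = 0.993). Vim was read at 145, 100 and 105 CPM in WT and at 363, 328 and 280 CPM in KO. It was low in every WT library and high in every KO library, as Zbtb32 was. For Hhex they were Myo1f, a myosin gene, and Cacna1d, a calcium channel gene (r = 0.986 each). Myo1f was read at 8.93, 9.19 and 15.0 CPM in WT and at 52.0, 17.6 and 33.2 CPM in KO, with the order of libraries that Hhex has. Tle3 was nearest to Creld2 (r = 0.998), Klf2 to Borcs5 (r = 0.976) and Klf3 to Etv6, an ETS-family repressor gene (r = 0.995). Creld2 was read at 104 CPM in the library labelled KO 1 and at 53.8 to 68.8 CPM in the other 5. These values were picked as the highest among 8385 genes over only 6 libraries. How many genes reach values of this size was not counted, and nothing is said of shared control.

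Genes that KLF2 is known to drive or that accompany it in homing and egress were tested from a list of 9, of which 8 passed the filter. In KO 7 of the 8 had a log2 fold change above 0, with a median of 0.73, and 0 passed over all genes by edgeR or limma-voom (3 higher and none lower at an unadjusted p under 0.05 in edgeR; 1 by DESeq2). Over all genes tested, 7.10% were higher and 5.50% lower at an unadjusted p under 0.05 in edgeR, and DESeq2 called 1.12%; the counts of this kind for each list below stand against these shares. S1pr1, the receptor for egress into blood and lymph, was read at 14.2, 11.3 and 12.5 CPM in WT and at 50.4, 19.9 and 17.7 CPM in KO (log2 fold change 1.21, SE 0.40, edgeR adjusted p = 0.284). It was highest in the library labelled KO 1, as Klf2 was, but in KO 3 it was above all WT libraries where Klf2, at 7.58 CPM, was not. Itgb7, an integrin subunit gene of gut homing, had a log2 difference of 1.07 (SE 0.33), and the chemokine receptor gene Ccr7 one of 1.35 (SE 0.67). Smaller or negative values were those of Cr2 (0.40, SE 0.38), Fcer2a (0.29, SE 0.20), Cxcr5 (0.01, SE 0.20) and S1pr4 (-0.36, SE 0.28). With DESeq2, and after thinning to equal depth, 6 of the 8 were above 0. Without the library labelled KO 1 the list's median was 0.52, and the values were 0.56 for S1pr1, 0.78 for Itgb7 and 0.47 for Ccr7.

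Surface and survival genes of memory B cells had the largest median difference of the lists read here. Of 11 listed genes 10 were tested, 9 had a log2 fold change above 0, and the median was 1.54, against 0.66 without the library labelled KO 1. None passed over all genes by edgeR or limma-voom (4 higher and none lower at an unadjusted p under 0.05 in edgeR), while DESeq2 called 3, Bcl2, Ccr6 and Cd80, against 1.12% of all genes. Cd80 was also called by edgeR with no filter on low counts (adjusted p = 0.0330, against 0.137 with the filter). The list was drawn up with earlier results of these libraries known, so its direction is no independent evidence. Cd80, a costimulatory ligand gene that marks a memory subset, was read at 2.36, 5.47 and 3.74 CPM in WT and at 12.1, 12.3 and 13.9 CPM in KO. Like Zbtb32, it was nearly level among the KO libraries. Ccr6, a chemokine receptor gene of memory precursors, was read at 3.68, 3.71 and 1.25 CPM in WT and at 47.0, 10.1 and 8.15 CPM in KO (log2 fold change 2.88, SE 0.84). Bcl2, an inhibitor of apoptosis, had the same order of KO libraries and a log2 difference of 2.47 (SE 0.67). The WT values of the genes that DESeq2 called rest on few counts. They were 8, 8 and 8 for Bcl2, 14, 19 and 4 for Ccr6 and 9, 28 and 12 for Cd80. Cd38, a surface enzyme gene lowered in germinal centre B cells, had a log2 difference of 1.38 (SE 0.50). Without the library labelled KO 1 the log2 differences were 1.63 for Ccr6, 1.33 for Bcl2 and 0.80 for Cd38, and 1.74 for Cd80. With all libraries Nt5e, another memory marker gene of the list, had a log2 difference below 0 (-0.24, SE 0.25). Cd44 had one of 0.10 (SE 0.23).

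For other transcription factors of memory or resting B cells the median difference was smaller. Of 15 listed, 13 were tested, 12 had a log2 fold change above 0 with a median of 0.24, and 4 had every KO library above every WT library (10.0% of all genes tested). By edgeR and limma-voom 0 passed over all genes (3 higher and none lower at an unadjusted p under 0.05 in edgeR, against 7.10% and 5.50% of all genes), and 1, Tbx21, by DESeq2. Tbx21, which encodes T-bet, was read at 7.62, 7.04 and 8.73 CPM in WT and at 66.4, 15.9 and 16.1 CPM in KO (log2 fold change 2.08, SE 0.63, edgeR adjusted p = 0.284). Zeb2, a repressor gene of T-bet-positive B cells, was read at 4.73, 10.4 and 6.55 CPM in WT and at 41.3, 11.01 and 20.1 CPM in KO. Both were highest in the library labelled KO 1, and without it their log2 fold changes were 1.03 and 1.09. Zfp318 had a log2 difference of 1.33 (SE 0.47), or 0.57 without that library, and the Polycomb gene Bmi1 one of 0.78 (SE 0.36), or 0.40.

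MHC class II genes, which ZBTB32 and BLIMP-1 repress through Ciita in plasma cells, lay on the other side by small amounts. In KO 1 of 10 had a log2 fold change above 0, the median was -0.21, and 0 passed by edgeR, limma-voom or DESeq2 (none higher and 2 lower at an unadjusted p under 0.05 in edgeR, where 5.50% of all genes were lower). Ciita itself was read at 458, 357 and 505 CPM in WT and at 459, 319 and 425 CPM in KO, with overlap between the groups (log2 fold change -0.13, SE 0.22). H2-DMa, a peptide-loading gene, had a log2 difference of -0.64 (SE 0.23), and H2-Ab1, a class II chain gene with close relatives, one of -0.61 (SE 0.23). H2-Eb1 (-0.46, SE 0.24) and H2-DMb2 (-0.37, SE 0.21) came next.

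**Figure D3:**
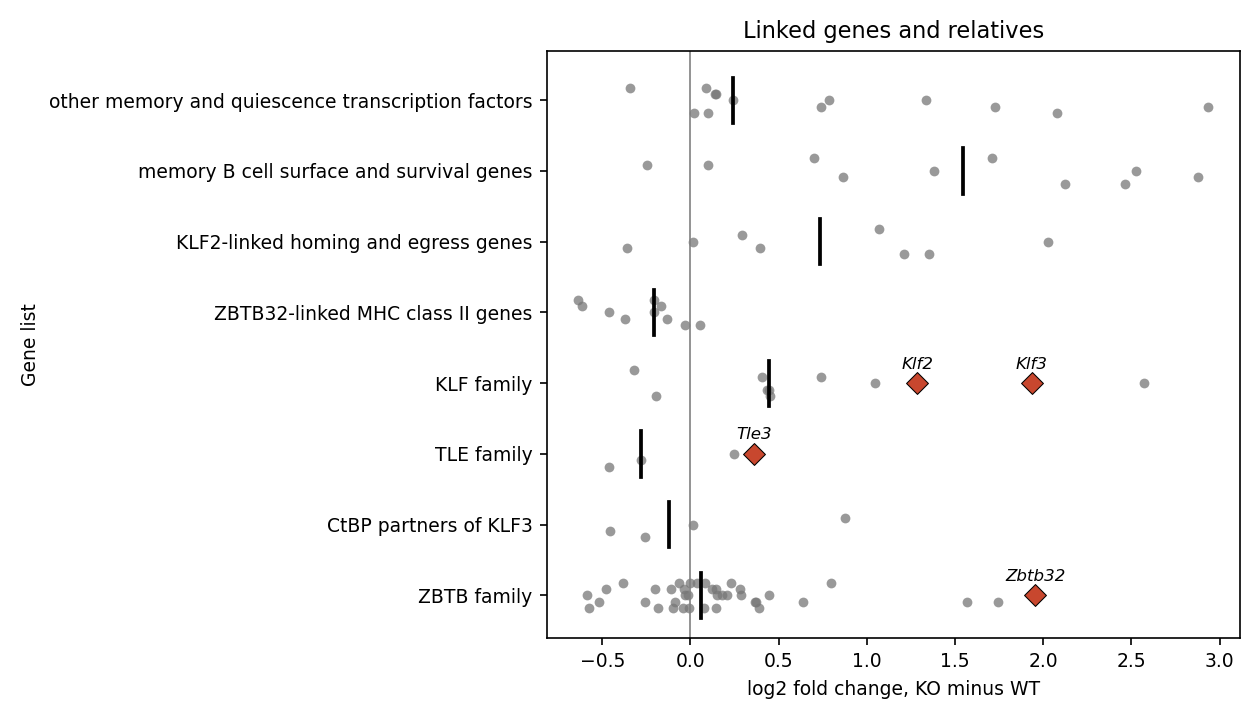
Fitted log2 fold change (KO minus WT, horizontal axis) of the tested genes of 8 lists (vertical axis); grey points are single genes, black lines the list medians without the 5 factors, and red diamonds the factors themselves. Memory surface and survival genes have a median of 1.54 and the ZBTB family one of 0.06.

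Relatives of Zbtb32, Klf2, Klf3 and Tle3 showed how far the differences went through their families, and relatives of Hhex were not read. Of 44 ZBTB-family genes beside Zbtb32 (Bcl6 and other BTB zinc finger genes included), 38 were tested, 20 had a log2 fold change above 0 and the median was 0.06. Groups did not overlap for 5 higher and 3 lower, where 10.0% and 7.95% of all genes tested did so, and 0 passed by edgeR, DESeq2 or limma-voom (4 higher and 1 lower at an unadjusted p under 0.05 in edgeR, against 7.10% and 5.50% of all genes). Zbtb8a (1.57, SE 0.51) and Hic1 (1.74, SE 0.58), with at most 5 counts in any WT library, had the largest log2 fold changes of these. Hic1, at 5, 3 and 2 counts in WT, needed its KO libraries to pass the filter on low counts. Zbtb38, which binds methylated DNA, had a log2 fold change of 0.64 (SE 0.21). Zbtb48 had one of -0.58 (SE 0.24), and Bcl6, the germinal centre factor, one of -0.04 (SE 0.22).

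Of 15 KLF genes beside Klf2 and Klf3, 9 were tested and 7 had a log2 fold change above 0, with a median of 0.45. None passed by edgeR, DESeq2 or limma-voom (1 higher and none lower at an unadjusted p under 0.05 in edgeR). DESeq2 and limma-voom also placed 7 of the 9 above 0. A stricter filter on low counts left 4 of these relatives, of which 2 were above 0 (median 0.12). Thinning to equal depth left 5, of which 2 were above 0 (median -0.07). The share above 0 thus changed with the filter and with depth. Klf8, another CtBP-binding repressor gene, had 2, 5 and 0 counts in WT and 38, 41 and 59 in KO. It passed the filter on low counts only through its KO libraries, so its log2 fold change above 0 supports nothing. A count of 0 in WT 3 allows up to 0.935 CPM, and KO 1 to 3 held 2.89, 2.89 and 4.22 CPM (log2 fold change 2.57, SE 0.73, edgeR adjusted p = 0.233). Klf11 had every KO library above every WT library by small steps, from at most 3.68 CPM in WT to at least 3.81 in KO. Klf6, an activation-induced member with 52.1 to 68.2 CPM in WT and 61.4 to 88.5 in KO, had a log2 difference of 0.45 (SE 0.22).

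Among the TLE genes beside Tle3, 3 of 5 were tested and 0 passed by edgeR, DESeq2 or limma-voom (none higher and 1 lower at an unadjusted p under 0.05 in edgeR). Aes, which encodes a short Groucho protein that lacks the WD repeats and can counter the long ones, had a log2 difference of -0.46 (SE 0.21). Tle4 had one of 0.25 (SE 0.25) and Tle1 one of -0.28 (SE 0.40), which for Tle1 was 0.04 without the library labelled KO 1. Of the CtBP partners of KLF3, 4 of 5 were tested and 0 passed by those tests (1 higher and none lower at an unadjusted p under 0.05 in edgeR). Zfp217 was read at 81.4, 47.7 and 34.0 CPM in WT and at 96.8, 94.4 and 108 CPM in KO (log2 fold change 0.87, SE 0.29), and Fhl3 had a log2 difference of -0.46 (SE 0.33).

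Markers of the sorted cells and of others were read beside these values, as sums in CPM of the library total. Germinal centre markers, S1pr2 and Bcl6 among them, summed to 3220, 3860 and 3120 in WT and to 2490, 3430 and 3210 in KO. This sum was lowest in the library labelled KO 1, and Mef2b had at most 6 counts in any library. Of 9 germinal centre markers tested, 1 had a log2 difference above 0, with a median of -0.21 (-0.10 without the library labelled KO 1). None passed by edgeR, limma-voom or DESeq2. At an unadjusted p under 0.05 in edgeR 1 was lower, Gcsam (-0.60, SE 0.27), and none higher, against 5.50% and 7.10% of all genes. Rgs13 had a log2 difference of -0.96 (SE 0.81). Basp1 alone (-0.33, SE 0.19) had every KO library below every WT library, as did 7.95% of all genes. Macrophage markers summed to 198, 842 and 1770 in WT and to 175, 133 and 1760 in KO, with none of the 10 at 0. T cell markers summed to 4.82 to 15.2 in the 6 libraries. Cd3d, which did not pass the filter, was at 0 in 2 WT libraries and at 15 raw counts in the deeper library labelled KO 1. Of the 2 T cell markers tested, Lat had a log2 difference of -1.37 (SE 0.64), with every KO library below every WT library. Cd4 had one of 0.04 (SE 0.77). Endothelial markers summed to 43.0 to 66.4 in WT and 88.4 to 109 in KO, most of it Pecam1, which leukocytes also express; Kdr was at 0 in all 3 WT libraries and had at most 9 counts in KO. Plasma cell markers summed to 1540 to 2460 in WT and 2040 to 2800 in KO. Of 9 tested, 7 had a log2 difference above 0, with a median of 0.60 (0.27 without the library labelled KO 1), and none passed by edgeR, limma-voom or DESeq2, though Irf4 passed in edgeR with no filter (adjusted p = 0.0436). Irf4, shared by plasma cells and activated B cells, had a log2 difference of 1.10 (SE 0.29) and Prdm1, which encodes BLIMP-1, one of 2.30 (SE 0.77), or 1.54 without that library. At an unadjusted p under 0.05 in edgeR 3 plasma cell markers were higher and none lower, against 7.10% and 5.50% of all genes. Other members were Tnfrsf13b (0.59, SE 0.24), with every KO library above every WT library, Creb3l2 (0.79, SE 0.66) and Fkbp11 (0.71, SE 0.69). Smaller or negative values were those of Xbp1 (0.03, SE 0.20), Jchain (0.13, SE 0.28), Sdc1 (-0.09, SE 0.42) and Slpi (-0.22, SE 0.40). Ccr7 and Cd38 also mark naive follicular B cells, and their values, highest in the library labelled KO 1, stand above. In bulk RNA a change in the number of such cells and a change in RNA per cell cannot be told apart, and the part of these cells in the differences was not tested.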

How the data were processed

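The 6 libraries are columns of a single table that the authors deposited, holding raw counts by gene symbol and made with CASAVA, STAR 2.5.2 and featureCounts 1.5.2 on mm10, per the submitters' processing notes. No source used here states the annotation, the strand setting or how reads with several matches were treated. Groups and replicate numbers came from the sample titles. The two-sided test of KO against WT used edgeR 4.0.16 under R 4.3.3, with TMM scaling, filterByExpr on the groups, robust glmQLFit, glmQLFTest and no covariate, and Benjamini-Hochberg adjustment over the 10926 genes that passed the filter and a threshold of 0.05. Each SE was obtained by dividing the log2 fold change by the square root of F. The log2 CPM used for correlations had a prior count of 2. The scripts were tested on simulated data.

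The 5 genes and all lists were chosen with earlier results of these data known. Up to 4 genes per list were named, by the smallest p-values, along with relatives whose groups did not overlap (Klf11). For each factor the 5 genes with the highest r were sought, of which 1 or 2 are given. Ciita, Bcl6, S1pr2, Mef2b and the marker genes were named beyond that rule. So were Nt5e, Cd44, Cxcr5, Cr2, Fcer2a and S1pr4, to show list members with small or negative differences. A gene that the rule would name is left out of the text. Coordinates and exon lengths came from GENCODE vM21 (GRCm38), promoters from RefSeq. P-values of edgeR set the group difference against a dispersion estimated from 3 mice per group and moderated over all genes. A floor for a count of 0 covers counting error only. Alternatives were 3 other scalings, 2 other filters, DESeq2 1.42.0, limma-voom (limma 3.58.1) plain and with quality weights, a block on the replicate number, thinning to equal depth (of 9 draws, that with the median number of calls) and each library left out.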

Additional observations from a re-analysis of the deposited data

How the results depend on the processing

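Zbtb32, Hhex, Klf2 and Klf3 kept a log2 fold change above 0 in every alternative run, and Tle3 in 15 of 16, the exception being the fit without the library labelled KO 1 (-0.177). The stricter filter removed Klf3, so that fit gave it no value. Zbtb32 missed the threshold with limma-voom (1.96) and after thinning (1.99), and with single libraries left out it ran from 1.85 to 2.15. Leaving out single libraries gave 1.08 to 1.65 for Hhex, -0.177 to 0.581 for Tle3, 0.189 to 1.75 for Klf2, 1.36 to 2.34 for Klf3 and -1.93 to -0.878 for Kdm1a, which passed without the library labelled KO 1. Over all genes 9 were called, but 18 by library size alone, 93 with no filter, 122 by DESeq2, 2 by limma-voom, 18 with quality weights and 1 to 24 with single libraries left out. The cause was not tested. Library size alone moved the median log2 fold change of all genes from 0.01 to 0.13. Same-numbered libraries paired only in part: the correlations of their deviations from the group means were 0.341, -0.0525 and 0.443. WT 1 was most like KO 1 and WT 3 most like KO 3, but WT 2 was also most like KO 3 (0.143). With the replicate block 21 genes were called, Zbtb32 among them, and none of the other 4 factors. The block lowered the SE of Klf2 from 0.784 to 0.389 (log2 fold change 1.03) and that of Kdm1a from 0.496 to 0.277 (-1.38). It lowered the SE of Tle3 and Klf3 too, while that of Zbtb32 (0.293) and Hhex (0.381) rose slightly. Klf3 rests on 4 to 11 counts per WT library.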
